A study of Mus musculus with 21 samples.

Results

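Prss56, Krt33a, C1qtnf3, Pygl and Sptlc3 were 5 of 18193 genes measured in mouse nephron progenitors, and they were selected on their own measured signals, because each had a much higher array signal after 48 h of BIO than after 24 h of BIO or after 24 h of BIO followed by its removal. They were read by 6 of 45037 probe sets, with a pair for Sptlc3 and 1 for each of the others. No numeric threshold came with the choice, and the values of those 3 groups are therefore given as a description, without a test. Expression was measured on 21 arrays, with 3 replicates in each of 7 groups. The cells came from E16.5 kidneys of embryos of a mixed background that carried a BAC transgene, Six2GFPcre, in which Six2 regulatory sequence drives a GFP and Cre fusion in the cap mesenchyme, and they were sorted by FACS.

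The 7 groups shared the transgene and the sort. Fresh cells were taken without culture. Dispersed cells were cultured for 24 h in DMSO or in 4 µM BIO. Aggregates, made by centrifugation of 40000 cells per sample, were cultured for 24 h in DMSO or in 4 µM BIO, or for 48 h with BIO on the first day and either DMSO or BIO on the second. All cultures held 10% serum. The labels give no aggregates kept for 48 h in DMSO alone, so an effect of the second day of BIO and an effect of time in culture cannot be told apart in a comparison with 24 h of BIO, while the group with BIO removed had the same time in culture. The replicates are called biological without a statement of separate litters or sorts, so the p-values measure the spread between these samples, which may be partly technical.

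BIO inhibits the kinase GSK3, which otherwise marks beta-catenin for destruction. With GSK3 inhibited, beta-catenin builds up and acts in the nucleus with factors of the Tcf and Lef family on Wnt target genes. In the developing kidney, Wnt signals keep part of the Six2-positive progenitors dividing and start the change of others into epithelial vesicles, a change that is held to need a later decline of the signal. The 5 genes have separate textbook roles. Prss56 encodes a secreted trypsin-like serine protease best known from the eye, and C1qtnf3 a secreted protein of the C1q and tumour necrosis factor family known from cartilage and fat. Krt33a encodes an acidic keratin of the hair shaft. Pygl encodes the liver form of glycogen phosphorylase, which releases glucose 1-phosphate from glycogen, and Sptlc3 encodes an alternative subunit of serine palmitoyltransferase, the enzyme of the first step of sphingolipid synthesis.

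Because BIO can act through beta-catenin, a route not tested here, the 250 bases before the start of each gene were searched. On both strands, 4 core words bound by Tcf and Lef factors were sought. One pair was CTTTGAA together with its variant CTTTGAT, and the other pair was CTTTGTA together with its variant CTTTGTT. RefSeq windows on GRCm38.p6 were found for 4 of the 5 genes, all but Krt33a. Prss56 and Sptlc3 each held 2 matches, and the windows of C1qtnf3 and Pygl held 0. Of all 32851 windows of that length, 14.8% held at least 1 match and 1.43% held at least 2. The windows of Prss56 and Sptlc3 are shown because they held matches, and capitals mark the matches, 5′ to 3′ on the strand of the gene. The window of Prss56 is chr1:87183064-87183313 on the plus strand and that of Sptlc3 is chr2:139493663-139493912 on the plus strand.
Prss56: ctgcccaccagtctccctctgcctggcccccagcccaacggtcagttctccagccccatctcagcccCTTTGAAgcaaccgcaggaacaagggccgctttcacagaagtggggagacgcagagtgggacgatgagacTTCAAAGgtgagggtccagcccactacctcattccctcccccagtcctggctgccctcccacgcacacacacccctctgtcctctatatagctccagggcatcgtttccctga
Sptlc3: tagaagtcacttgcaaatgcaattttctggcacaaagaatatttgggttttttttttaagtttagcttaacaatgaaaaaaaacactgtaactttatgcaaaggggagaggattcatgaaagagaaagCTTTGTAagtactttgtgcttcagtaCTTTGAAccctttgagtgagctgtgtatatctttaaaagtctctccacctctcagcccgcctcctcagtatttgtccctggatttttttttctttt
In Prss56 the word CTTTGAA lies 183 to 177 bases before the start, and again on the opposite strand, read here as TTCAAAG, 113 to 107 bases before it. In Sptlc3 the word CTTTGTA lies 122 to 116 bases before the start and CTTTGAA 96 to 90 bases before it, both on the strand of the gene. G and C made up 61.2% of the Prss56 window and 35.6% of the Sptlc3 window, against a median of 52.4% over all windows. A match is a run of letters and not a measured binding site.

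Values below are quantile-normalised signals, and background is a signal of 41.8, below which 95% of the readings of 27 bacterial control probe sets fell. Where one group lay below background, its arrays were raised to that level and the fold is given as at least so many. Where both groups lay below it, no fold or direction is given. Correlations of each array with the others of its group averaged between 0.951 and 0.98. On each array 67.8 to 67.9% of probe sets were above background. Quantile normalisation makes this share nearly equal, so it does not compare detection between arrays. The ratio of the 3′ to the 5′ Gapdh control, a sign of RNA length, was 6.2 to 9.57 after 48 h of BIO, 11.4 to 15.2 in aggregates after 24 h of BIO and 9.99 to 12.4 after BIO removal. The 3′ beta-actin control was lowest in aggregates after 24 h of BIO, with signals of 2895 to 5479 against 6634 to 12736 on all other arrays. Fresh cells expressed all 7 listed progenitor markers, with a summed signal of 30355 to 31261, and the sum was 5504 to 12071 in the cultured groups, where Cited1 was below background throughout. In such bulk samples, fewer cells of a type and less RNA per cell cannot be told apart.

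After 48 h of BIO, every array lay above each of the other 18 arrays for all 6 probe sets, an order held by 2.6% of all probe sets, and 5.09% held it against the 6 arrays of 24 h of BIO and BIO removal. The choice of genes used this contrast, so the count is a description. Signals reached at least 4-fold over both 24 h of BIO and BIO removal in 5 of the 6 probe sets and in 0.253% of all probe sets. The 5 genes reached this common peak from different starting points, which the other groups show.

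**Figure D1:**
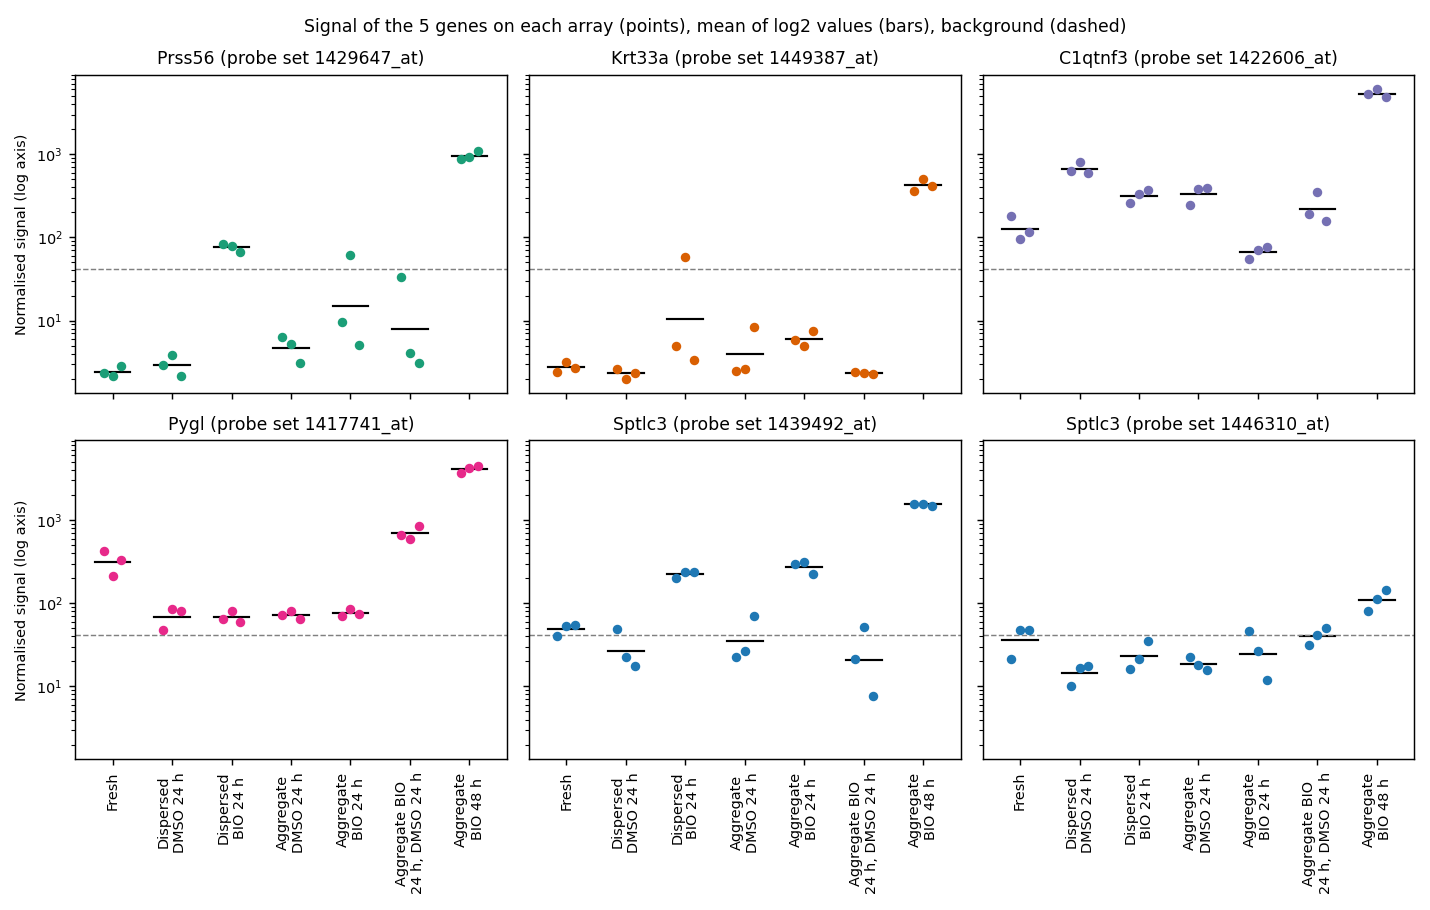
Normalised signal (log axis) of each probe set of the 5 genes on the 21 arrays by group, with points for arrays, bars for the mean of the log2 values and a dashed line for background at 41.8. The arrays of 48 h of BIO are highest in each panel, and the groups that come next differ: dispersed BIO for Prss56 and Krt33a, dispersed DMSO for C1qtnf3, BIO removed for Pygl and aggregates after 24 h of BIO for Sptlc3 (1439492_at).

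Prss56 was close to silent without BIO and was higher in BIO in dispersed cells and after 48 h in aggregates. Its signals (probe set 1429647_at) were 884, 923 and 1085 after 48 h of BIO, with a mean of 964 ± 107 (SD, n = 3). In dispersed cells they were 83.7, 78.6 and 66.9 in BIO and 2.95, 3.87 and 2.13 in DMSO. All BIO arrays of dispersed cells were above background and all DMSO arrays below it.

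The difference between BIO and DMSO in dispersed cells was at least 1.8-fold (log2 difference 4.30 ± 0.23 (SE), limma adjusted p = 1.43e-06). In aggregates, Prss56 signals were 9.69, 62 and 5.03 after 24 h of BIO, 6.3, 5.23 and 3.07 after 24 h of DMSO, and 33.3, 4.04 and 3.13 after BIO removal. Of these 9 arrays, a single one, of 24 h of BIO, was above background. The signal after 48 h of BIO was at least 19.7-fold that after 24 h of BIO and at least 22.4-fold that after BIO removal, and the smaller of these ranked 4 among all probe sets. Fresh cells gave 2.32, 2.17 and 2.81, all below background. Prss56 passed the test in aggregates in DMSO against fresh cells (limma adjusted p = 0.0395), but both groups lay below background, so no direction is read from it.

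Of 26 other trypsin-like serine proteases measured, 4 were higher and 0 lower after 48 h than after 24 h of BIO (limma on 21 arrays, adjusted p under 0.05), beside 6.55% of all probe sets higher and 8.01% lower (6.98% and 10.7% with 1 probe set per gene, as in the lists). Their median difference was 0.09 (log2), against -0.04 over all probe sets. Htra1, a secreted protease that cleaves matrix proteins, rose from a mean signal of 936 ± 215 to 9471 ± 709 (log2 difference 3.36 ± 0.48 (SE), limma adjusted p = 0.000167). Prss23, Tmprss2 and Plat, the last encoding tissue plasminogen activator, rose by 1.74, 1.68 and 1.08 on the log2 scale. Against BIO removal, 2 proteases were higher and 3 lower (1 lower without replicate 3 of 48 h of BIO, or without replicate 1 or 2 of BIO removal), beside 6.34% of all probe sets higher and 6.25% lower (9.15% and 7.89% of genes). Htra1 and Tmprss2 were the higher pair (4.20 and 1.95, log2), whereas Plat fell by 1.81 on the log2 scale (limma adjusted p = 2.19e-09).

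With BIO in dispersed cells, 1 protease was higher and 6 lower, beside 12.6% and 11.7% of all genes. Htra1 was the one that rose (log2 difference 4.17 ± 0.58 (SE), limma adjusted p = 0.000788), and without replicate 1 of dispersed BIO the counts were 2 and 7. Prss35, a protease-like protein without a complete catalytic site, fell by 4.26 on the log2 scale in that comparison.

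C1qtnf3 was the one member that was lower with BIO in dispersed cells. Its signals (1422606_at) were 179, 94.3 and 117 in fresh cells, 624, 801 and 593 in dispersed cells in DMSO, and 245, 380 and 388 in aggregates in DMSO. The DMSO cultures did not overlap with fresh cells. C1qtnf3 rose 5.27-fold in dispersed culture against fresh cells (log2 difference 2.40 ± 0.27 (SE), limma adjusted p = 0.000159) and 2.62-fold in aggregates (1.39 ± 0.27 (SE), limma adjusted p = 0.00412). With the Gapdh 3′ to 5′ ratio as a covariate, an alternative chosen after seeing the data, these were 1.70 (adjusted p = 0.053) and 0.26 (adjusted p = 0.907). That ratio was 8.59 to 10.4 in fresh cells, 11.6 to 12.4 in dispersed DMSO cells and 13.6 to 15.4 in DMSO aggregates.

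BIO in dispersed cells gave C1qtnf3 signals of 261, 336 and 369, all below those in DMSO, a 2.09-fold lower level (log2 difference -1.06 ± 0.27 (SE), limma adjusted p = 0.0214). This call was lost without replicate 2 of dispersed DMSO (-0.93, adjusted p = 0.0784), without replicate 1 of dispersed BIO (-0.92, adjusted p = 0.0789), without replicate 2 of dispersed BIO (-1.10, adjusted p = 0.0519) and with the Gapdh covariate (-0.46, adjusted p = 0.569). In aggregates, 24 h of BIO gave 54.7, 70.7 and 76.2, all below the DMSO aggregates and 4.91-fold lower. After BIO removal the signals were 193, 352 and 159, all above those at 24 h of BIO and 3.29-fold higher.

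After 48 h of BIO the C1qtnf3 signals were 5234, 6077 and 4854, with a mean of 5388 ± 626 (SD, n = 3). That was 79.4-fold the level after 24 h of BIO, 24.2-fold the level after BIO removal and 8.04-fold that of dispersed DMSO cells, the next highest group. The low values at 24 h of BIO were part of the choice of genes, so this course in aggregates, which the plot of signals by array shows, is a description only. The smaller of its folds over the 2 other groups of the choice ranked 3 among all probe sets.

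Of 21 other genes of the C1q and tumour necrosis factor family, 3 were higher and 0 lower after 48 h than after 24 h of BIO (limma on 21 arrays), beside 6.98% and 10.7% of all genes, and 9 were below background in both groups. Col8a1, a short-chain collagen with a C1q domain, rose at least 7.07-fold (log2 difference 3.83 ± 0.51 (SE), limma adjusted p = 8.65e-05). C1qtnf4 and Cbln1, the last a secreted synapse organiser, rose by 2.13 and 2.01 on the log2 scale. Col8a1 also shared the earlier part of the course: it rose at least 7.56-fold in dispersed DMSO culture and fell 4.90-fold with BIO there. C1qtnf6, another gene of the family, was below background after both 24 h and 48 h of BIO. Against BIO removal, 2 family genes were higher, C1qtnf4 and Cbln1, and 1 was lower, the matrix gene Emilin1 (2 lower without replicate 1 or 2 of BIO removal), beside 9.15% of all genes higher and 7.89% lower.

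Krt33a was detected after 48 h of BIO and on 1 other array. Its signals (1449387_at) were 365, 501 and 411 after 48 h of BIO, a mean of 426 ± 69.3 (SD, n = 3). Replicate 2 of dispersed BIO gave 58.4 and the other two replicates of that group gave 4.93 and 3.37. Leaving out these arrays, the other groups gave 1.99 to 8.37, all below background. In the comparisons that could be tested, both groups of Krt33a lay below background, and the signal after 48 h of BIO was at least 9.87-fold that of 24 h of BIO, of BIO removal and of fresh cells.

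Of 11 other hair keratins, 0 passed by limma between 48 h and 24 h of BIO or between 48 h of BIO and BIO removal. At an unadjusted p under 0.05 there were 2, both higher, in each comparison. The share of all genes at that unadjusted threshold is not given here, so no excess is read from these counts. Without replicate 3 of 48 h of BIO, 1 passed as higher than after removal. Krt31, Krt33b and Krt34, the near relatives of Krt33a among the acidic hair keratins, did not pass against 24 h of BIO (limma adjusted p of 0.844, 0.383 and 0.25). Krt31 differed by 0.19 (log2), Krt33b was below background after 48 h of BIO and Krt34 was below it in both groups. Of 11 hair follicle regulators measured, 3 were higher and 2 lower than after 24 h of BIO, and 4 were higher and 0 lower than after BIO removal, beside the same shares of all genes as for the proteases. Msx1, a homeobox factor also active in hair, rose by 2.62 (limma adjusted p = 2.69e-06) and 4.48 (limma adjusted p = 4.54e-09) on the log2 scale in these comparisons. Gata3, a factor of the inner root sheath and also of the ureteric bud, had its only group mean above background after 48 h of BIO, among the 7 groups, and Vdr and Ovol1 fell between 24 h and 48 h of BIO. Of those falls 1 remained a call without replicate 1 or 2 of 24 h of BIO or without replicate 1 or 3 of 48 h of BIO.

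Markers of epidermis and hair follicle were followed beside Krt33a. Their summed signal over 6 genes was 1058 to 1264 after 48 h of BIO and 201 to 424 in the other groups. Krt5, the basal keratin of stratified epithelia, made up most of it, with a mean of 878 ± 106 (SD, n = 3) after 48 h of BIO against 56 to 157 in the other group means. Krt15 and Hoxc13, the latter a regulator of hair keratins, were below background in all 7 groups, and Krt14 and Foxn1 had mean signals of 57.4 and 78.4 after 48 h of BIO. Trp63, a transcription factor of basal epithelial cells, had a mean of 123 ± 21.7 (SD, n = 3) after 48 h of BIO. It was higher by 0.91 (log2) than after 24 h of BIO (limma adjusted p = 0.0124) and at least 2.67-fold higher than after removal (limma adjusted p = 7.2e-05). Krt5 and Trp63, both higher, were the 2 of the 6 markers that passed in both of these comparisons. Of all genes, 6.98% were higher and 10.7% lower than after 24 h of BIO. Against removal these shares were 9.15% and 7.89%. The part of such cells in the Krt33a signal was not tested.

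Pygl fell in culture and returned above its fresh level on the second day. Its signals (1417741_at) were 423, 215 and 333 in fresh cells, 47.5, 84.5 and 81.7 in dispersed DMSO cells, and 72.7, 79.9 and 64.7 in DMSO aggregates. The cultured arrays were all below the fresh ones. Pygl fell 4.47-fold in dispersed culture (log2 difference -2.16 ± 0.28 (SE), limma adjusted p = 0.000404) and 4.27-fold in aggregates (-2.09 ± 0.28 (SE), limma adjusted p = 0.000499). With the Gapdh covariate the second of these was -2.35 with an adjusted p of 0.225.

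On the first day BIO left no detected difference in Pygl. Dispersed BIO cells gave 64.6, 80.5 and 59.7, overlapping with DMSO (log2 difference -0.03 ± 0.28 (SE), 95% interval -0.66 to 0.60, limma adjusted p = 0.967). Aggregates after 24 h of BIO gave 69.9, 84.4 and 73.9, a level 1.05-fold that of DMSO aggregates, also with overlap. On the second day Pygl was high in both groups: 668, 589 and 846 after BIO removal and 3646, 4184 and 4523 after continued BIO. BIO removal thus stood 9.04-fold and continued BIO 53.4-fold above 24 h of BIO, with no overlap among the 3 groups. The choice of genes used these 3 groups, so their order is a description only. The step between the 48 h groups was 5.91-fold, and 48 h of BIO stood 13.1-fold above fresh cells.

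Of 25 other genes of glycogen metabolism, 4 were higher and 2 lower after 48 h than after 24 h of BIO, where 6.98% of all genes were higher and 10.7% lower. Against BIO removal 6 were higher and 2 lower, where the shares of all genes were 9.15% and 7.89%. From 24 h to 48 h of BIO the changes were small beside that of Pygl. Stbd1 and Gaa, which bind glycogen and degrade it in lysosomes, rose by 0.72 and 0.68 on the log2 scale. Ppp1r3e and Phka2 fell by 0.80 and 0.71. Pygb, the brain form of the phosphorylase, was 1.83-fold higher in 48 h of BIO than after removal (log2 difference 0.87 ± 0.14 (SE), limma adjusted p = 0.000583) and 1.35-fold higher than after 24 h, which missed the threshold (limma adjusted p = 0.0588). Pygm, the muscle form, shared the fall in culture, 4-fold in dispersed cells (limma adjusted p = 0.0296) and at least 4.47-fold in aggregates (limma adjusted p = 0.0028), but passed in neither second-day comparison. Gys1, glycogen synthase, passed in none of the 7 comparisons, with log2 differences of -0.47 to 0.34.

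Ppp1r3b, a glycogen-targeting subunit of protein phosphatase 1, was lower in 48 h of BIO than after removal, where Pygl was higher. It was 3.93-fold lower with BIO in dispersed cells (log2 difference -2.12 ± 0.28 (SE), limma adjusted p = 0.000592) and at least 3.92-fold lower in 48 h of BIO than after removal (-2.60 ± 0.45 (SE), limma adjusted p = 0.000769). Its sister subunit Ppp1r3c was 2.31-fold higher in the latter comparison.

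Sptlc3 followed the presence of BIO at each time and in both culture forms. Its signals (1439492_at) in dispersed cells were 200, 240 and 235 with BIO and 48.9, 22.5 and 17.5 with DMSO. In aggregates they were 294, 310 and 226 after 24 h of BIO and 22.3, 26.7 and 70.1 after 24 h of DMSO. In both culture forms every BIO array was above every DMSO array.

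The rise with BIO in dispersed cells was at least 5-fold (log2 difference 3.02 ± 0.45 (SE), limma adjusted p = 0.00113), and the difference in aggregates, which the choice of genes touched, was at least 5.43-fold. After BIO removal the signals were 21.4, 51.4 and 7.73, at least 6.01-fold below 24 h of BIO. After 48 h of BIO they were 1577, 1560 and 1496, with a mean of 1545 ± 43 (SD, n = 3), which was 5.61-fold the level at 24 h and at least 33.7-fold the level after removal. Fresh cells gave 40.2, 52.6 and 54.4, near background, and neither DMSO culture differed from them beyond the spread (limma adjusted p = 0.226 and 0.479).

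The other Sptlc3 probe set, 1446310_at, showed the same peak at a lower fold and did not show the first-day rise. It gave 81.4, 112 and 146 after 48 h of BIO, at least 2.51-fold the level after 24 h of BIO. With BIO in dispersed cells it gave 16.3, 21.3 and 35, below background, where 1439492_at rose. It passed the test in dispersed DMSO against fresh cells (limma adjusted p = 0.0311), but both groups lay below background.

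Sptlc1 and Sptlc2, the partner and the usual counterpart of Sptlc3 in the enzyme, did not follow it. After 48 h of BIO they differed from 24 h of BIO by 0.12 and 0.37 (log2; limma adjusted p = 0.573 and 0.0663) and from BIO removal by 0.21 and 0.24 (limma adjusted p = 0.311 and 0.271). Sptlc2 was 1.35-fold lower with BIO in dispersed cells (log2 difference -0.43 ± 0.12 (SE), limma adjusted p = 0.0352) and had risen in dispersed culture by 0.96 (limma adjusted p = 0.000358). Of 36 other genes of sphingolipid metabolism, 6 were higher and 3 lower after 48 h than after 24 h of BIO, beside 6.98% and 10.7% of all genes. The higher count fell to 3 without replicate 1 or 2 of 24 h of BIO and to 2 without replicate 1 of 48 h of BIO. Asah2, a neutral ceramidase, rose by 1.13 on the log2 scale, and Cers3, a ceramide synthase of skin, fell at least 2.08-fold (limma adjusted p = 0.00249).

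Against BIO removal, 5 sphingolipid genes were higher and 3 lower, beside 9.15% and 7.89% of all genes (1 lower without replicate 2 of BIO removal, and 4 higher and 1 lower with arrays centred on their medians). Galc, the lysosomal galactosylceramidase, was 2.86-fold higher (log2 difference 1.52 ± 0.10 (SE), limma adjusted p = 4.22e-08), and it was also 3.91-fold higher with BIO in dispersed cells. Sgpp2, a sphingosine 1-phosphate phosphatase, was 2.91-fold lower than after removal although BIO had raised it at least 3.69-fold in dispersed cells.

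**Figure D2:**
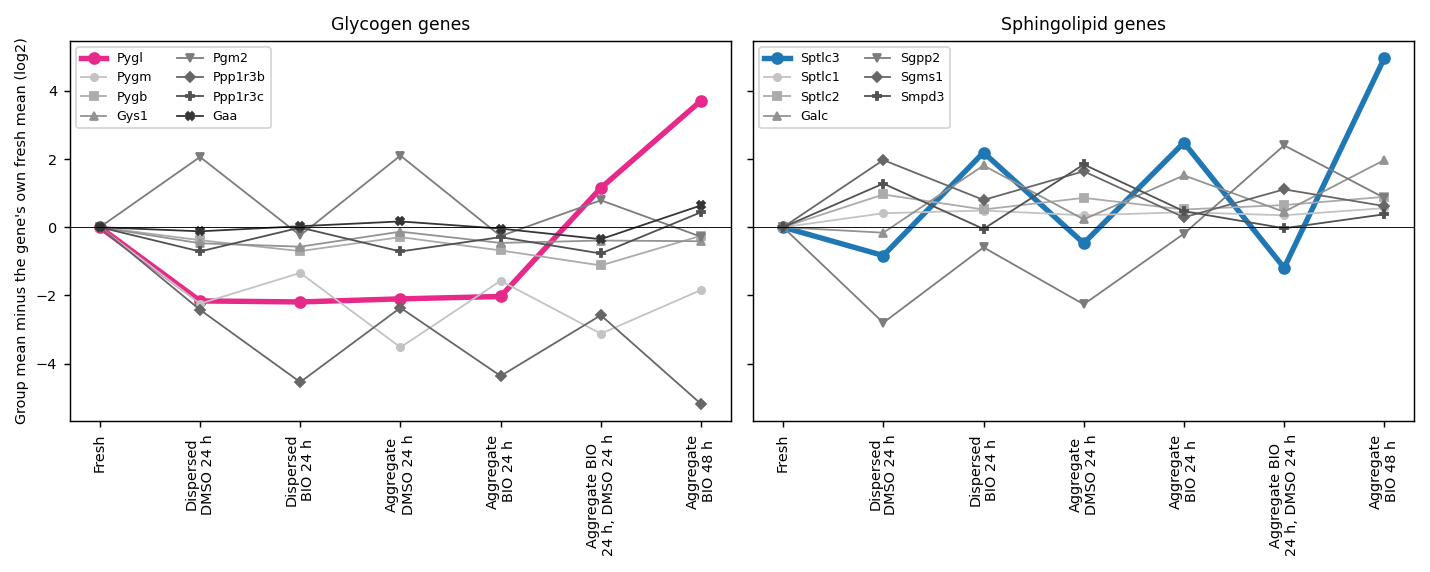
Group means of log2 signal minus the gene's own mean in fresh cells, for Pygl with genes of glycogen metabolism and for Sptlc3 (1439492_at) with genes of sphingolipid metabolism; lines join groups as a guide and are no time course. Pygl lies below its fresh level in the 4 groups cultured for 24 h and above it in both 48 h groups, while Sptlc3 lies above its fresh level in the 3 BIO groups and Sptlc1 and Sptlc2 stay within 1 log2 unit of theirs.

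The comparisons outside the choice of genes give the share of members that moved. Of the 6 probe sets, 3 passed in dispersed DMSO culture against fresh cells, where 23.6% of all probe sets did (11.8% higher, 11.9% lower), and 3 in DMSO aggregates against fresh cells, where 27.7% did (14% higher, 13.7% lower). In each case 1 of the 3 was below background in both groups. With BIO in dispersed cells 3 of 6 passed, 2 of them higher, where 18.6% of all probe sets passed, 9.46% higher and 9.15% lower. Aggregates against dispersed cells in DMSO gave 0 of 6 by limma, where 2.95% of probe sets passed (0.797% higher, 2.16% lower). At an unadjusted p under 0.05 there were 2, C1qtnf3 and Prss56, the latter below background in both groups. The share of all probe sets at that unadjusted threshold is not given here, so no excess is read from these 2. C1qtnf3 was 2.01-fold lower in aggregates with no overlap (log2 difference -1.01 ± 0.27 (SE), limma adjusted p = 0.0808), and it passed with a variance trend and robust prior (adjusted p = 0.031) or with the beta-actin control entered in the fit (-1.25, adjusted p = 0.0326).

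**Figure D3:**
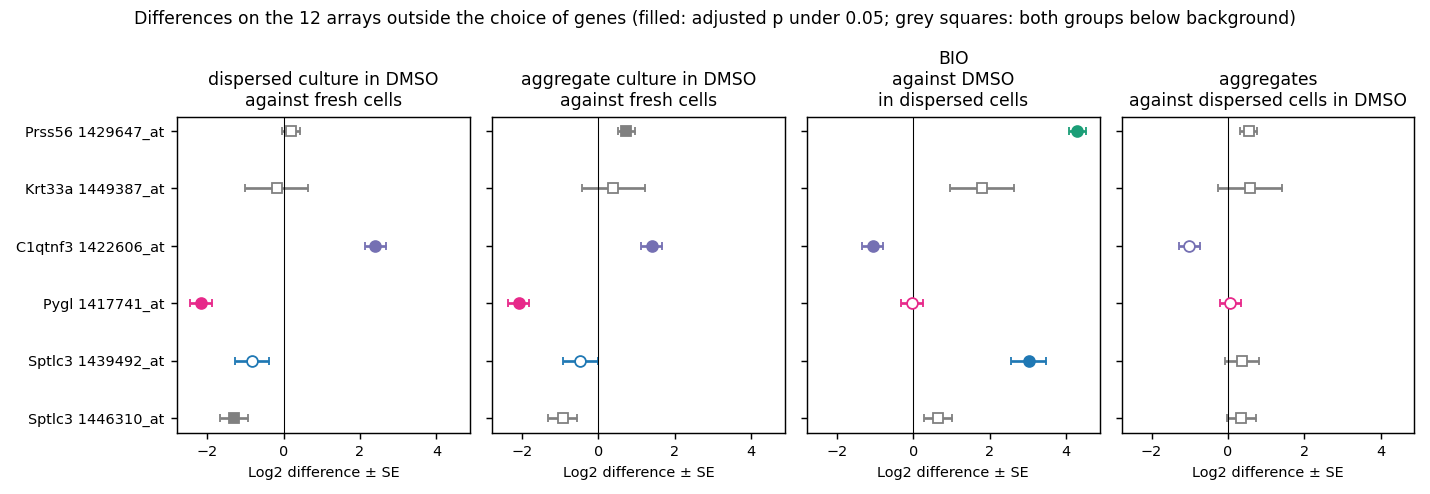
Log2 differences with SE for the 6 probe sets in the 4 comparisons that use the 12 arrays outside the choice of genes; filled symbols passed at an adjusted p under 0.05 and grey squares had both groups below background. Prss56 (4.30) and Sptlc3 (1439492_at, 3.02) lie to the right in the BIO comparison, C1qtnf3 (-1.06) to the left and Pygl (-0.03) at 0.

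Known Wnt targets served as a check of the treatment. Of 15 measured, 11 were higher and 0 lower with BIO in dispersed cells, where 12.6% and 11.7% of all genes were. In 48 h of BIO, 11 were higher and 1 lower than after removal, beside 9.15% and 7.89% of all genes. Ccnd1 went the other way, with means of 1507 ± 287 after 48 h of BIO and 4189 ± 745 after removal. Between 24 h and 48 h of BIO, 5 were higher and 0 lower, beside 6.98% and 10.7% of all genes. Wif1, a secreted Wnt inhibitor, rose from a mean signal of 262 ± 102 to 4746 ± 280 over that day (log2 difference 4.24 ± 0.40 (SE), limma adjusted p = 3.28e-06) and stood at 31.4 ± 9.17 after removal. Rnf43, which removes Wnt receptors, rose at least 4.44-fold, whereas Notum, an enzyme that inactivates Wnt, had means of 3813 ± 634 and 4870 ± 315.

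Among one another the members were not alike in the other groups. Likeness was measured as the root mean square difference between the 7 group means of a pair of genes, each profile centred on its own mean (log2). Sptlc3 was first read by probe set 1439492_at. Prss56 and Krt33a were closest (0.91), followed by Krt33a and Sptlc3 (1.05) and by Prss56 and Sptlc3 (1.21), in part through groups below background. Pygl was farthest from Prss56 and from Sptlc3 (2.21 each), and C1qtnf3 lay 2.02 from Sptlc3. Read by 1446310_at, Sptlc3 lay 1.7 from Krt33a, 2.17 from Prss56, 1.57 from C1qtnf3 and 1.3 from Pygl. The probe sets of Sptlc3 lay 1.68 from each other. These distances describe 7 groups whose shared peak was part of the choice.

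Among 14192 candidate genes, the nearest profiles differed by member. Prss56 was nearest to Tnfrsf11b, the decoy receptor osteoprotegerin (0.89), then Krt33a, Rnf43 (0.94) and the homeobox gene Dlx5 (0.97). Krt33a was nearest to the phosphatase Ptprr (0.81), then Prss56, Aldh1a1 (0.91) and Tnfrsf11b (0.92). C1qtnf3 was nearest to Gata3 (0.62), then the chemokine Cxcl5 (0.89), the laminin chain Lamb3 and Cpxm2 (0.97 each). Pygl was nearest to Lypd6b (0.78), Grik3 (0.82), Pla2g5 (0.91) and Hs3st3a1 (0.92). Sptlc3 (1439492_at) was nearest to the Wnt inhibitor Dkk4 (0.61), the metallothionein Mt3 (0.63), Stac (0.65) and Spink8 (0.66). Krt33a, Aldh1a1, Gata3, Cxcl5, Lamb3 and Grik3 were above background in their mean after 48 h of BIO alone, so their likeness to a member outside that group rests on values that carry no order.

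**Figure D4:**
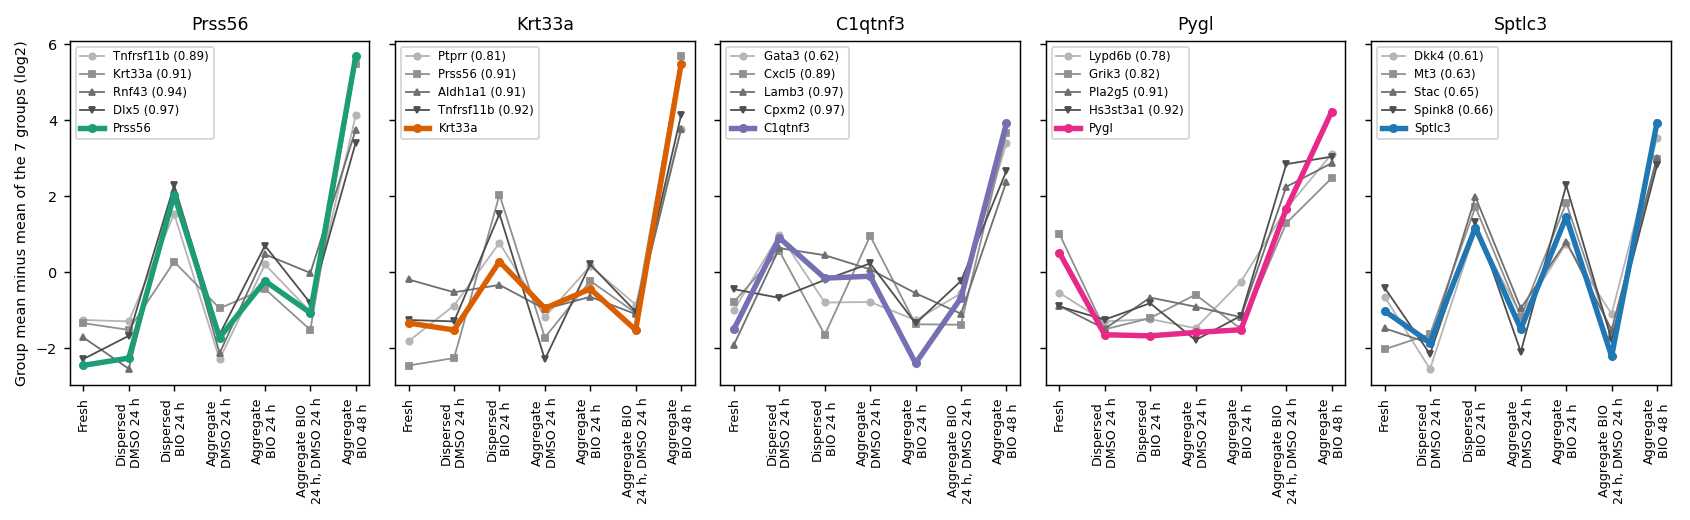
Group means of log2 signal, each centred on the mean of the 7 groups, for each member and the 4 genes nearest to it, with the root mean square difference in brackets. All profiles peak after 48 h of BIO, and the panels differ before it. In the Sptlc3 panel the profiles are higher in the groups kept in BIO than elsewhere. Dkk4 (0.61) is near background after 24 h of BIO, with signals of 44.9 in aggregates and 57.5 in dispersed cells. In the Pygl panel, Pygl, Lypd6b (0.78), Pla2g5 and Hs3st3a1 are high after BIO removal while Grik3 is below background there.

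The place of the members among all probe sets is shown by the differences of 48 h of BIO from both comparison groups. C1qtnf3 was among the highest on both, Pygl mostly against 24 h of BIO, and Sptlc3 (1439492_at) mostly against BIO removal. Over the next highest group of any kind, the folds were 12.5 for Prss56, at least 8.86 for Krt33a, 8.04 for C1qtnf3, 5.91 for Pygl, 5.61 for Sptlc3 (1439492_at) and at least 2.38 for 1446310_at. They ranked 2, 4, 7, 23, 30 and 167 among all probe sets.

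**Figure D5:**
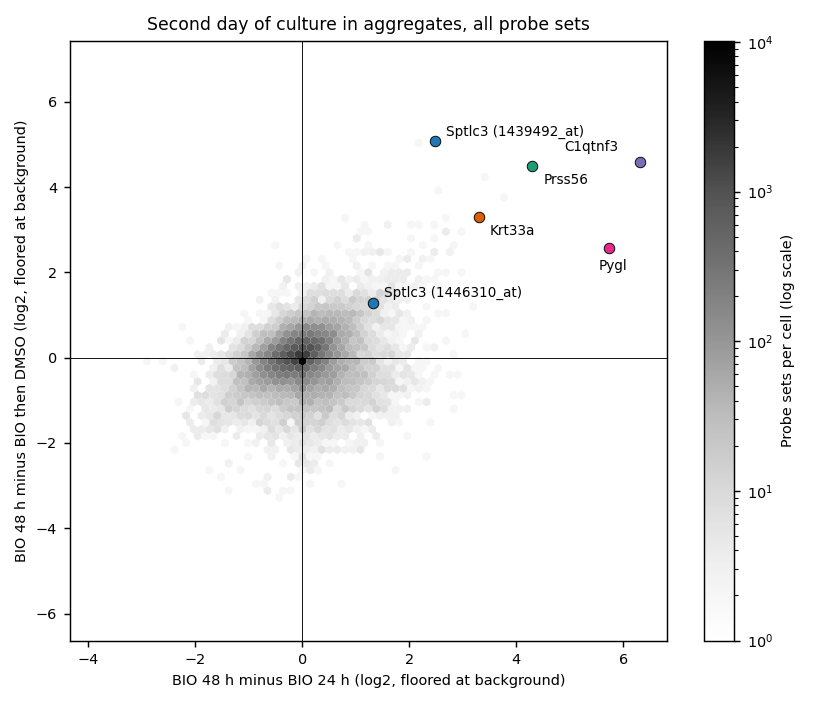
Difference of 48 h of BIO from 24 h of BIO (horizontal) and from BIO removal (vertical), log2 with arrays floored at background, for all probe sets (grey cells, log count) and the 6 member probe sets (points). The members lie at the upper right, where the genes were chosen to lie, with C1qtnf3 (79.4-fold and 24.2-fold) farthest right and Sptlc3 (1439492_at, at least 33.7-fold over removal) highest.

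Sums of markers for other cell types were followed beside the members, and their part in the results was not tested. Chondrocyte markers, relevant to C1qtnf3, had their lowest sum over 5 genes after 48 h of BIO, 340 to 648 against 714 to 2607 elsewhere, with Matn1 and Comp below background. Hepatocyte markers, relevant to Pygl, summed to 138 to 262 over 4 genes after 48 h of BIO and 102 to 212 elsewhere, with Afp and Apoa1 below background. Ttr was above background after 48 h of BIO alone, with a mean signal of 62.1. By limma, 0 of the 4 passed against 24 h of BIO or against BIO removal. Interstitial stroma markers summed to 1506 to 2068 over 6 genes after 48 h of BIO, 3056 to 3302 after 24 h of BIO, 8713 to 10041 after BIO removal and 11756 to 12756 in fresh cells. Of these 6 genes, 5 were lower after 48 h of BIO than after removal (limma), beside 7.89% of all genes. Against 24 h of BIO, 2 of the 6 were lower (limma), beside 10.7% of all genes. Ureteric bud markers summed to 666 to 703 over 4 genes after 48 h of BIO and 386 to 652 elsewhere. Of these 4 genes, 2 were higher and 0 lower than after removal, beside 9.15% and 7.89% of all genes. Against 24 h of BIO, 1 was higher and 0 lower, beside 6.98% and 10.7% (limma). Gata3 was higher in both comparisons, at least 2.26-fold in each. Endothelial markers summed to 444 to 673 over 4 genes after 48 h of BIO and 242 to 553 elsewhere. Of the 4, 1 was higher than after BIO removal, the receptor Tek (4.94-fold, limma adjusted p = 9.79e-05), beside 9.15% of all genes. Leukocyte markers summed to 519 to 670 over 4 genes after 48 h of BIO and 397 to 1198 elsewhere.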

How the data were processed

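Mouse arrays (21, 3 per group) were read from the authors' deposited table of linear signal intensity, between 0.1 and 18025.33, over 45101 probe sets, of which 64 were controls. The labels and the table name no software or scaling for them. Array medians differed (87.2 to 106), so log2(value + 1) was quantile-normalised. Probe sets were named through the platform table and RefSeq symbols: 34945 had 1 symbol (34884 through RefSeq), 932 several and 9160 none.

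Members, gene lists and the added comparisons were chosen with earlier results of these data known. Members were tested with limma 3.58.1 (R 4.3.3; lmFit and eBayes) on the 12 arrays of the groups outside their choice, over all 45037 other probe sets, Benjamini-Hochberg adjusted, threshold 0.05 (8 residual and 1.61 prior degrees of freedom). Listed genes, 1 probe set each, were also tested over all 21 arrays (14 and 1.68), an extension added after the plan. In the comparisons of 48 h of BIO, members share arrays with their choice and have no test. The fit was tested on simulated data. Named genes were the members, 9 fixed relatives or partners, up to 4 list genes with the largest difference past the threshold in a comparison, and the 4 genes nearest to each member in profile. Same-numbered replicates deviated with correlations of -0.23 to 0.08, so the numbers do not pair the samples. Alternatives were the deposited scaling, median centring, log2(value + 16), a filter on dim probe sets, 1 probe set per gene, all 21 arrays, a replicate block, a variance trend with robust prior, leaving out each array and, chosen after seeing the data, 2 RNA-quality covariates. Promoter windows are RefSeq's (GRCm38.p6), and that of Krt33a was not analysed here. The number of arrays limits the precision.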

Additional observations from a re-analysis of the deposited data

How the results depend on the processing

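Across the alternatives, 178 of 198 single values of the members kept their direction and their side of the threshold, as did 205 of 216 values with 1 array left out. All 6 member probe sets kept every 48 h array above all others under 3 scalings. Leaving out an array cannot break that order, so it is no check of it, and the choice of genes used part of the same contrast. Prss56 and the Sptlc3 probe set 1439492_at passed with BIO in dispersed cells under every alternative run. The other Sptlc3 probe set, 1446310_at, did not pass there in the fit on 12 arrays (limma adjusted p = 0.286), with both groups below background.

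Counts of probe sets passing moved under the most alternatives for aggregates against dispersed cells in DMSO, 1330 in all: 2006 with the filter on dim probe sets, 335 with 1 probe set per gene, 640 with the replicate block, 2705 with a variance trend and robust prior and 107 with the Gapdh covariate. Leaving out arrays gave 315 to 1276 there. Members passing there were 1, C1qtnf3, with the robust prior and 1 with the beta-actin covariate. For dispersed culture against fresh cells, 10646 became 6123 with 1 probe set per gene, a smaller set of features, and 3450 with the Gapdh covariate, with 1 of 3 members still passing. For aggregates against fresh cells, 12490 became 6152 and 619, with 0 of 3 members passing under the covariate. For BIO in dispersed cells, 8384 became 5368 and 3448. The cause was not tested. The replicate block changed no other count of calls by over 1.5 times and no member's call, and C1qtnf3 with BIO in dispersed cells then stood at an adjusted p of 0.05.

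The near-zero Pygl differences changed sign. With BIO in dispersed cells they were 0.00 with the deposited scaling, 0.11 with the Gapdh covariate and -0.29 to 0.12 with 1 array left out. For aggregates against dispersed cells they were -0.04 with the deposited scaling, -0.04 with the Gapdh covariate, and -0.20 to 0.21 with 1 array left out. For 24 h of BIO against DMSO in aggregates they were -0.01 to 0.14 with 1 array left out.

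With the deposited scaling the split of calls into higher and lower moved from 2949 and 3609 to 3397 and 2751 for 48 h against 24 h of BIO, from 4754 and 4020 to 3672 and 4721 for BIO in aggregates at 24 h, and from 359 and 971 to 207 and 1443 for aggregates against dispersed cells (228 and 107 with 1 probe set per gene). The median of all probe sets in aggregates against fresh cells moved from 0.06 to -0.04 (log2). Adding 16 before the log lowered 10 described differences by more than the spread. Values below background carry no order.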
